A study of Mus musculus with 144 samples.

Results

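Of the 54 retinal cells sorted at day 2 after crush of the optic nerve, 22 held the stathmin gene Stmn1 at 20 FPKM or more and 32 held less, and the 2 arms, chosen by this measured Stmn1 value, are compared here for all other genes. FPKM is fragments per kilobase of exon and per 1000000 reads assigned to genes. The 54 cells are part of 144 single-cell libraries from Iba1-EGFP mice, in which a fluorescent reporter driven by Iba1 marks microglia and other macrophages. The labels give an age of 16 weeks. All 144 cells came from the retina: 54 from mice given no treatment, 54 from day 2 after optic nerve crush and 36 from day 4. They lay on 3 plates, each with 18, 18 and 12 cells of those time points, which sat in separate plate rows, so that plate row and time point cannot be told apart. The labels name no animal. Each time point is therefore 1 sample of cells, both arms of the split are cells of that sample, and no difference has a test or a replicate check. The plate gives the only repeat of each difference, and the labels do not say what else differs between plates.

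Stathmin binds free tubulin dimers and favours the disassembly of microtubules, and it is phosphorylated as a cell enters mitosis so that the spindle can form. Its transcript is high in dividing and growing cells, and lower in resting ones. Microglia of the adult retina divide slowly at rest and multiply after injury of the optic nerve. A cell that enters the cycle copies its DNA in S phase with helicases, polymerases and nucleotide-making enzymes, and later makes cyclin B, the kinase Cdk1, kinetochore proteins and the proteins that package and separate chromosomes. The split asks whether such growth and cell cycle genes mark a subset of the cells at day 2.

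Since the arms were chosen by Stmn1, the levels of Stmn1 itself are a description. Stmn1 (ENSMUSG00000028832, chromosome 4) had a lowest, median and highest level of 39.6, 565 and 5398 FPKM in the 22 Stmn1-high cells, against 0.250, 1.83 and 17.4 FPKM in the 32 Stmn1-low cells. The cells just inside the threshold were at 39.6, 45.4 and 57.6 FPKM, and those just outside at 17.4, 14.4 and 12.9 FPKM. Stmn1-high cells were 5 of 18 on plate 1, 10 of 18 on plate 2 and 7 of 18 on plate 3. At the same threshold they made up 5 of 54 untreated cells (9.26%, exact Clopper-Pearson 95% interval 3.08% to 20.3%), 22 of 54 cells at day 2 (40.7%, 27.6% to 55.0%) and 18 of 36 cells at day 4 (50%, 32.9% to 67.1%). Intervals cover counting error only. On each plate the share was lowest in untreated cells and highest at day 4.

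**Figure D1:**
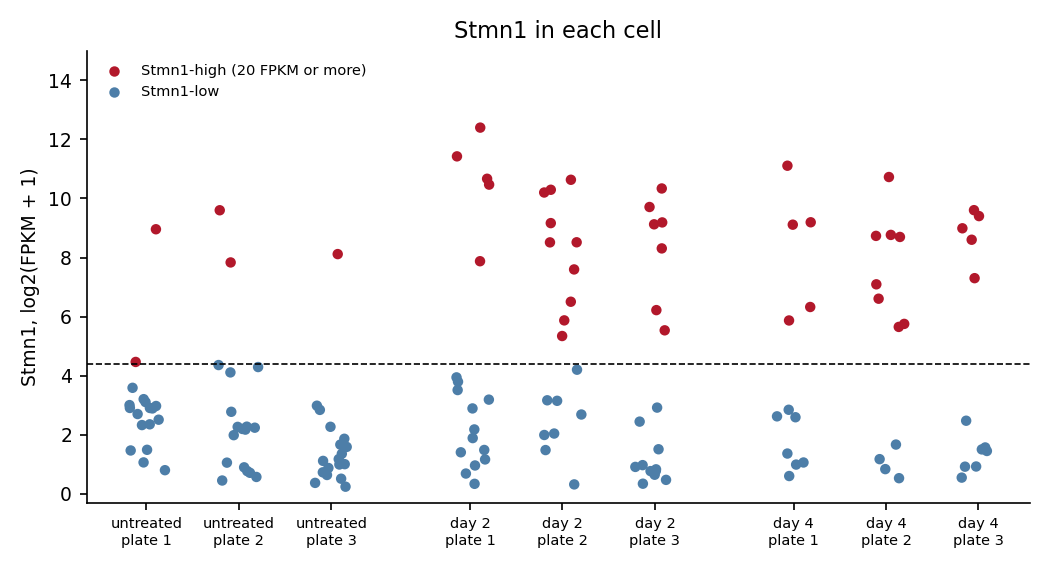
Stmn1 in every cell as log2(FPKM + 1), by time point and plate; red points are cells at 20 FPKM or more, blue points cells below, and the dashed line is the threshold. The day 2 cells leave a gap between 17.4 and 39.6 FPKM.

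The Stmn1 level itself is uncertain, because 72.2% of its values above 0 in day 2 cells were not whole numbers of reads. Rows that share its sequence moved with it. Gm11223, annotated as a processed pseudogene, differed by 6.62 on the log2(FPKM + 1) scale, and 92.6% of its stretches of 31 bases also occur in Stmn1 transcripts. Gm23634, whose exons overlap those of Stmn1, differed by 6.26. Neither row is evidence apart from Stmn1.

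Pooled over plates, Stmn1-high cells were also richer libraries. They had a median of 7.32 M assigned reads (M for 1000000) and 3938.5 genes at 1 FPKM or more, against 4.70 M and 3148.5 genes in Stmn1-low cells. Thinned to 1 M reads per cell, Stmn1-high cells had a median of 3288 genes at 5 reads or more (21 cells) and Stmn1-low cells 2564 (31 cells), with 1 cell of each arm too shallow. On plate 1 the order was the other way, at 2323 genes in Stmn1-high and 2842 in Stmn1-low cells, and at 1588 and 2078 after thinning. The thinned medians of Stmn1-high and Stmn1-low cells were 3288 and 3461 on plate 2, and 3673 and 2885 on plate 3. The median difference over all 8778 measured genes, those at 1 FPKM or more in at least 10% of the day 2 cells, was 0.27, and it was -0.03, 0.11 and 0.45 on plates 1, 2 and 3. Every cell of both arms had at least 5 of the 10 microglia markers at 20 FPKM or more. At least 3 border macrophage markers were at that level in 3 Stmn1-high and 5 Stmn1-low cells, and at least 3 monocyte markers in 1 Stmn1-high and 0 Stmn1-low cells. The part that depth and detected genes have in the differences was not tested beyond the covariate values given with them.

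A gene was called when its mean log2(FPKM + 1) differed by at least 1 and the difference had 1 sign on all 3 plates. By that rule 814 of 8778 genes were higher in Stmn1-high cells, which is 9.27%, and 48 were lower, which is 0.547%. Thus 94.4% of calls were towards higher, and that share depended on the scaling: it was 78.0% after centring on the median of all genes (506 higher and 143 lower) and 63.4% in a linear model with detected genes as covariate. In that model 447 genes (5.09%) were called higher and 258 (2.94%) lower, and the median of all genes moved to 0.02.

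Among genes of 1 sign on all plates, 4 of the 15 with the largest positive differences encode proteins of chromatin. That grouping was made after the values were seen. The share of such genes among all measured genes was not counted, so the 4 are a description. H2az1, which encodes the histone variant H2A.Z, led the 15, followed by Cks1b, a small subunit of cyclin-dependent kinases. H2az2, the other H2A.Z gene, Anp32e, a chaperone that removes H2A.Z from chromatin, and Hmgn2, a nucleosome-binding protein, were the others. H2az1 was at 1.34, 608 and 6767 FPKM (lowest, median and highest) in Stmn1-high cells, against 0.696, 38.8 and 695 FPKM in Stmn1-low cells. It was thus present in most cells of both arms, with arms that overlap, and lay at 20 FPKM or more in 21 of 22 Stmn1-high and 17 of 32 Stmn1-low cells. Its mean log2(FPKM + 1) was 8.72 ± 2.26 (SD over 22 Stmn1-high cells) and 5.02 ± 2.73 (SD over 32 Stmn1-low cells), a difference of 3.70, with 5.71, 1.87 and 3.52 on plates 1 to 3. All 31-base stretches (100%) of the processed pseudogene Gm8203, which differed by 3.37, occur in H2az1, and 96.3% of H2az1 values were not whole reads, so its level is uncertain.

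H2az2 had far fewer positive cells and a sharper split. It was at 0, 84.8 and 1312 FPKM in Stmn1-high cells, against 0, 0.716 and 102 FPKM in Stmn1-low cells, and reached 20 FPKM in 12 and 3 cells of those arms. The difference was 3.48, and it was 4.83, 4.05 and 2.07 by plate. Anp32e differed by 3.23, with 13 Stmn1-high and 4 Stmn1-low cells at 20 FPKM or more. Hmgn2 differed by 3.00, with 18 and 11 such cells, but 100% of its values were not whole reads and its level is uncertain. Others among the 15 were Arl6ip1, a membrane protein that shapes the endoplasmic reticulum (3.24), Tpm4, a tropomyosin (3.12), Bag1, a cochaperone of Hsp70 (2.96), and Tomm22, an import receptor of mitochondria (2.83). Few values of H2az2 (12.8%) and Anp32e (5.88%) were fractions of a read. With the same split in day 4 cells, H2az1 differed by 2.14 and Anp32e by 1.76, above 0 on every plate. H2az2 differed by 1.37 and Hmgn2 by 1.79 there, but by -1.98 and -0.85 on plate 1.

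**Figure D2:**
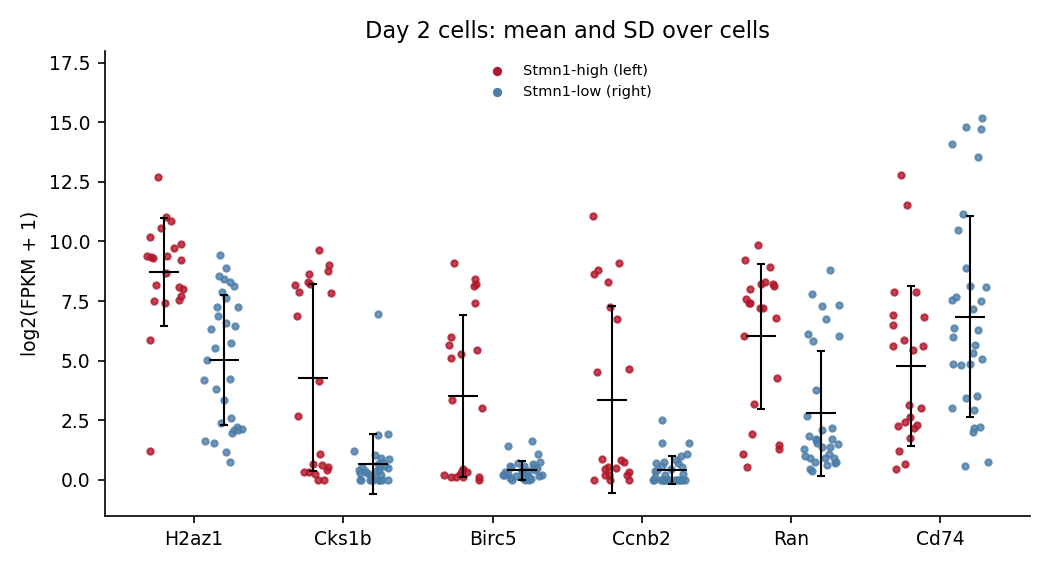
Log2(FPKM + 1) of 6 genes in each day 2 cell, with Stmn1-high cells (red) left of Stmn1-low cells (blue); the black bar is the mean and the whiskers 1 SD over cells. Cks1b, Birc5 and Ccnb2 form a group of high cells within the Stmn1-high arm, with the other cells of that arm near 0, whereas H2az1 is present in most cells of both arms.

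Of the 42 genes on the list of G2 phase and mitosis, 31 were measured, and their median difference was 1.58. Of the 31, 11 were called higher (Cdk1, Ccnb2, Ube2c, Ube2s, Cdca3, Cenpa, Cenpf, Nusap1, Cks1b, Tacc3 and H2az1) and 0 lower, beside 9.27% and 0.547% of all genes. Over all 42 genes, with no filter, the median was 1.15. With detected genes as a covariate it was 1.41 and 9 were called higher. The plates differed: the list median was -0.08 on plate 1, against 1.86 on plate 2 and 1.86 on plate 3. Without plate 1, where 1 sign was asked for on fewer plates, 28 of the 31 were called higher, beside 15.7% of all genes. Because a gene at near 0 in Stmn1-low cells passed the filter through the Stmn1-high arm, the counts over measured genes are a description.

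Ccnb2, Cks1b and Birc5 were high in some Stmn1-high cells and near 0 in others, unlike H2az1. Ccnb2, cyclin B2, a partner of Cdk1, was at 0, 0.729 and 2154 FPKM in Stmn1-high cells, against 0, 0.114 and 4.67 FPKM in Stmn1-low cells. It lay at 20 FPKM or more in 9 Stmn1-high cells and in 0 Stmn1-low cells, a difference of 2.94 (1.67, 2.34 and 4.45 by plate). Cks1b was at 0, 11.1 and 787 FPKM in Stmn1-high cells, against 0, 0.290 and 125 FPKM in Stmn1-low cells. It lay at 20 FPKM or more in 10 and 1 cells, and the difference was 3.63 (1.68, 3.20 and 4.79 by plate). The plate 1 values of both genes rest on single cells. There the highest Stmn1-high cell was at 315 FPKM for Ccnb2 and the next at 0.850 FPKM. For Cks1b a different cell was at 284 FPKM and the next at 1.14 FPKM. Tacc3, also called, reached only 0.526 FPKM in Stmn1-high and 0.764 FPKM in Stmn1-low cells of plate 1. Birc5, survivin of the chromosomal passenger complex, was at 0, 8.15 and 552 FPKM in Stmn1-high cells, against 0, 0.214 and 2.10 FPKM in Stmn1-low cells. It was at 20 FPKM or more in 10 and 0 cells, but its difference of 3.11 was -0.25 on plate 1, so it was not called. The proliferation marker Mki67 was not measured by the filter and was at 20 FPKM or more in 2 Stmn1-high and 0 Stmn1-low cells. Top2a, the topoisomerase of mitosis, differed by 1.02 and was not called.

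The promoters of the 4 mitosis-list genes with the largest differences are shown because mitotic genes share known promoter elements. In the RefSeq windows (build GRCm38.p6, 300 bases around the annotated start), capitals mark matches on either strand to CCAAT, the motif bound by NF-Y, to TTTGAA, an element of cell cycle genes, and to CACGTG, an E-box; TTTCCCGC and TTTGGCGC, forms of the E2F motif, were searched too. The windows are chr3:137864237-137864536 on the plus strand, chr3:89418242-89418541 on the minus strand, chr11:117848987-117849286 on the plus strand and chr9:70421505-70421804 on the minus strand, each printed 5′ to 3′ in the direction of the gene.
H2az1: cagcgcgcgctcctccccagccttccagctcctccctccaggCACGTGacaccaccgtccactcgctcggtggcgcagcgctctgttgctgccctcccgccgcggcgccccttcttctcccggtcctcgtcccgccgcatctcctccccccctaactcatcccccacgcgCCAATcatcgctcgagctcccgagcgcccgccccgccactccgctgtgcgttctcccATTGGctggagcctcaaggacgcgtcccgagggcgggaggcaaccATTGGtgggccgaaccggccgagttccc
Cks1b: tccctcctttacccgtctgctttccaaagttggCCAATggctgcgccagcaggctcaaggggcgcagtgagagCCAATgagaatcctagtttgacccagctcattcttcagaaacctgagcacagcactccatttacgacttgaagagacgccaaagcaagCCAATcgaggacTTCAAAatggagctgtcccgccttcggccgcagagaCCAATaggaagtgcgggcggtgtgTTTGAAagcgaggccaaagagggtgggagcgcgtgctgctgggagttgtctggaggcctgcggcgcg
Birc5: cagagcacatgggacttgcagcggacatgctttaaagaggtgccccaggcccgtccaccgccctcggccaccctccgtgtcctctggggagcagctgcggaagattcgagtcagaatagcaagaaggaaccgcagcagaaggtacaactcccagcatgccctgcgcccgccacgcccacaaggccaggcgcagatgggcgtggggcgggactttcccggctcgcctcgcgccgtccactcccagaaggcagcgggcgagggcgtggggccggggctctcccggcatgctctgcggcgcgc
Ccnb2: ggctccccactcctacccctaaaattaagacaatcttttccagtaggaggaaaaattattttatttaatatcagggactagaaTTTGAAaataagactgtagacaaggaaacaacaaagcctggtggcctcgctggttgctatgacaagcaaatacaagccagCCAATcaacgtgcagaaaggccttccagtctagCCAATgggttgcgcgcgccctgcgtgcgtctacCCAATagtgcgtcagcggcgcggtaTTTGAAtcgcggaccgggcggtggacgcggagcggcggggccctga

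Cks1b held 4 matches to CCAAT and 2 to TTTGAA, and Ccnb2 held 3 and 2, with no 2 matches overlapping. H2az1 held 3 matches to CCAAT and 1 to CACGTG. No match to the 5 motifs was found in the Birc5 window, which says only that these letters are not there. CCAAT was in 82.1% and TTTGAA in 71.4% of 28 windows of 26 measured list genes. Over the 6758 windows of all measured genes the shares were 37.9% and 12.7%, and over the 639 windows of genes called higher they were 41.6% and 13.6%. Those called higher thus held the motifs at close to the share of all measured genes. In all 32851 windows the shares were 37.4% for CCAAT, 17.9% for TTTGAA, 7.15% for CACGTG, 1.07% for TTTCCCGC and 0.514% for TTTGGCGC. The E2F forms were in 0 list windows, and CACGTG was in 3.57% of them.

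The mitosis-list genes at 20 FPKM or more were also counted in each cell. The count was 1, 7.5 and 34 (lowest, median and highest) in Stmn1-high cells and 0, 1 and 7 in Stmn1-low cells. At least 10 such genes were held by 9 of 22 Stmn1-high cells (40.9%, interval 20.7% to 63.6%) and by 0 of 32 Stmn1-low cells (upper limit 10.9%), a level of 10 that was chosen after the values were seen. Cells near that level, with 7 to 12 genes, were 7 in the Stmn1-high arm and 1 in the Stmn1-low arm. The 9 cells held 34, 32, 23, 13, 13, 11, 11, 10 and 10 such genes, so most lay close to the level. Of those with 13, 1 was the shallowest library, at 0.190 M reads, and of those with 11, 1 held markers of another cell type. The part that the richer libraries of Stmn1-high cells have in these counts was not tested. The 9 cells were 0 of 5 on plate 1, 5 of 10 on plate 2 and 4 of 7 on plate 3. Plate 1 held the highest Stmn1 levels, with a median of 1625 FPKM in its 5 Stmn1-high cells, yet those cells held at most 7 mitosis-list genes. Stmn1 level and mitotic genes thus did not go together on every plate.

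**Figure D3:**
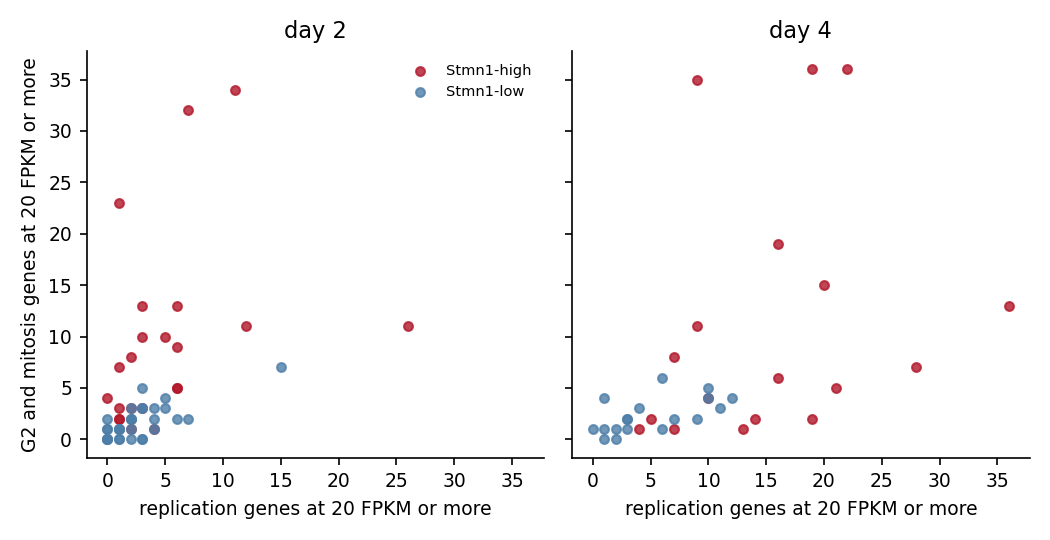
Number of replication-list genes (horizontal) and of G2 and mitosis list genes (vertical) at 20 FPKM or more in each cell, at day 2 (left) and day 4 (right); red points are Stmn1-high and blue points Stmn1-low cells. At day 2 the cells with at least 10 mitosis-list genes are all Stmn1-high, and 3 of these 9 also hold at least 10 replication genes; at day 4 more Stmn1-high cells lie to the right.

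Genes of DNA replication stood out little at day 2. Of 45 genes, 28 were measured, with a median difference of 0.51 (-0.14, 0.42 and 0.81 by plate; 0.21 with the covariate). Tk1, thymidine kinase, Rfc2, a subunit of the clamp loader, and Pold2, a subunit of DNA polymerase delta, were called higher and 0 lower, close to the 9.27% of all genes. Without plate 1, 8 of the 28 were called higher, beside 15.7% of all genes, and without plate 3, 1 was called higher and 1 lower, beside 10.4% and 2.38%. Tk1 differed by 1.60, with 5 Stmn1-high and 1 Stmn1-low cells at 20 FPKM or more. Rfc2 differed by 1.42, but by 0.72 without plate 3, and 66.7% of its values were not whole reads. Pold2 differed by 1.01, and by 0.76 without plate 3. Pcna, the sliding clamp, was at 0, 1.05 and 1957 FPKM in Stmn1-high cells, against 0, 1.46 and 245 FPKM in Stmn1-low cells. It was not called: its difference was 0.77, and -0.95 on plate 1. At least 10 replication genes were at 20 FPKM or more in 3 of 22 Stmn1-high and 1 of 32 Stmn1-low cells, and the 3 were among the 9 with at least 10 mitosis-list genes.

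Of the 12 measured genes that control the step from G1 to S phase, 2 were called higher and 0 lower, beside 9.27% and 0.547% of all genes. The list median was 0.43. With so few genes the count is a description. Both called genes encode inhibitors of the cycle. Cdkn1a, p21, an inhibitor of cyclin-dependent kinases, was at 20 FPKM or more in 9 Stmn1-high and 3 Stmn1-low cells, and differed by 2.09. Cdkn2d, an inhibitor of Cdk4 and Cdk6, differed by 1.57, with 6 and 1 such cells. Cyclin D1 (Ccnd1) differed by 0.08 and the growth regulator Myc by 0.51, and neither was called. For Cdkn1a, 57.4% of values were not whole reads, so its level is uncertain.

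Tubulin is the target of stathmin. Of 16 measured genes for tubulins and partners of stathmin at microtubules, 7 were called higher and 0 lower, beside 9.27% and 0.547% of all genes. The 7 were Tuba1a, Tuba1b, Tuba1c, Tubb4b, Tubb5, and the tubulin-folding cofactors Tbca and Tbcb. Of the other 9, none was called, and Tbcc, also a folding cofactor, had the lowest difference at -0.99. The list median was 0.97 (0.41, 1.29 and 1.17 by plate). With the covariate it was 0.34, with 6 called higher and 1 lower, beside 5.09% and 2.94% of all genes. Tubb5 was at 0.562, 94.3 and 515 FPKM in Stmn1-high cells, against 0.472, 4.83 and 2139 FPKM in Stmn1-low cells, and differed by 2.05 (2.26, 1.60 and 1.82). The arms overlapped over nearly the whole range. The alpha-tubulin genes Tuba1b, Tuba1a and Tuba1c differed by 2.42, 2.52 and 2.75. Of their values, 94.4% to 98.1% were fractions of a read, and the levels are uncertain for that reason.

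Energy metabolism gave the most called genes of any list by count, from the longest of the 22 programme lists. That list, the nuclear-encoded respiratory chain, had 26 of 56 measured genes called higher and 0 lower, beside 9.27% and 0.547% of all genes. Its median was 1.21 (1.0, 0.61 and 1.80 by plate). With the covariate 15 were called higher and 1 lower, beside 5.09% and 2.94% of all genes. Atp5j, a subunit of the ATP synthase, differed by 3.33, Cox7c, a subunit of cytochrome oxidase, by 2.82, Atp5g1 by 2.78 and Cox7a2 by 2.65. Cox7a2 was at 0.548, 134 and 1807 FPKM in Stmn1-high cells, against 0, 2.29 and 1010 FPKM in Stmn1-low cells. Ndufc1, of complex I, differed by 2.95. Atp5j, Atp5g1 and Cox7c had over 50% of values as fractions of reads and are uncertain. Glycolysis had 4 of 14 called higher (Tpi1, Gapdh, Pgam1 and Eno1), beside 9.27% of all genes, with a median of 0.71. With the covariate 4 were called higher and 1 lower, and the median was 0.39. Tpi1 differed by 2.04, but by 1.33 without plate 3, and Eno1 by 1.80, but by 1.12 without plate 1.

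Lists of protein making and turnover had smaller shares called than the respiratory chain. Their main counts stand beside 9.27% of all genes called higher and 0.547% called lower. Those with the covariate stand beside 5.09% called higher and 2.94% called lower. Proteasome subunits had 10 of 31 called higher, with a median of 0.94. Without cells under 2 M reads 5 were called, beside 7.87% of all genes, and with the covariate 3 were called, beside 5.09%, with a median of 0.35. Chaperones of the heat shock family and the endoplasmic reticulum had 6 of 19 called higher, with a median of 0.67, and 4 with a median of 0.11 with the covariate. The CCT chaperonin, which folds tubulin and actin, had a median of 1.11 over 8 genes but 1 call (Cct4), and a median of -0.17 on plate 1. Without plate 1, 5 of the 8 were called, beside 15.7% of all genes. Without plate 3, or with the covariate, 0 were called, and the covariate median was 0.36. Ribosome biogenesis had 6 of 30 called higher (Nop10, Dkc1, Nip7, Polr1d, Bysl and Lyar), and its median of 0.49 was 1.16 on plate 3, against 0.10 and -0.02 on plates 1 and 2. Without plate 3 that median was 0.11, and without plate 2 it was 0.88 with 12 calls, beside 15.5% of all genes. With the covariate it was 0.15, with 5 called higher and 1 lower. Translation factors had 7 of 28 called higher and 1 lower (median 0.62), purine and pyrimidine synthesis 3 of 24 higher (0.79), actin regulators 6 of 29 (0.66) and ribosomal proteins 12 of 80 (0.59), beside 9.27% of all genes. With the covariate the medians were 0.04 for translation factors (3 higher and 2 lower), 0.34 for purine and pyrimidine synthesis (2 higher), 0.39 for actin regulators (3 higher and 1 lower) and 0.30 for ribosomal proteins. Ran, the GTPase of nuclear transport and spindle assembly, was the 1 call among 17 genes of its list (median 0.52, and 0.23 with the covariate). It was at 0.454, 158 and 916 FPKM in Stmn1-high cells, against 0.284, 2.06 and 450 FPKM in Stmn1-low cells, a difference of 3.23, but 72.2% of its values were not whole reads.

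**Figure D4:**
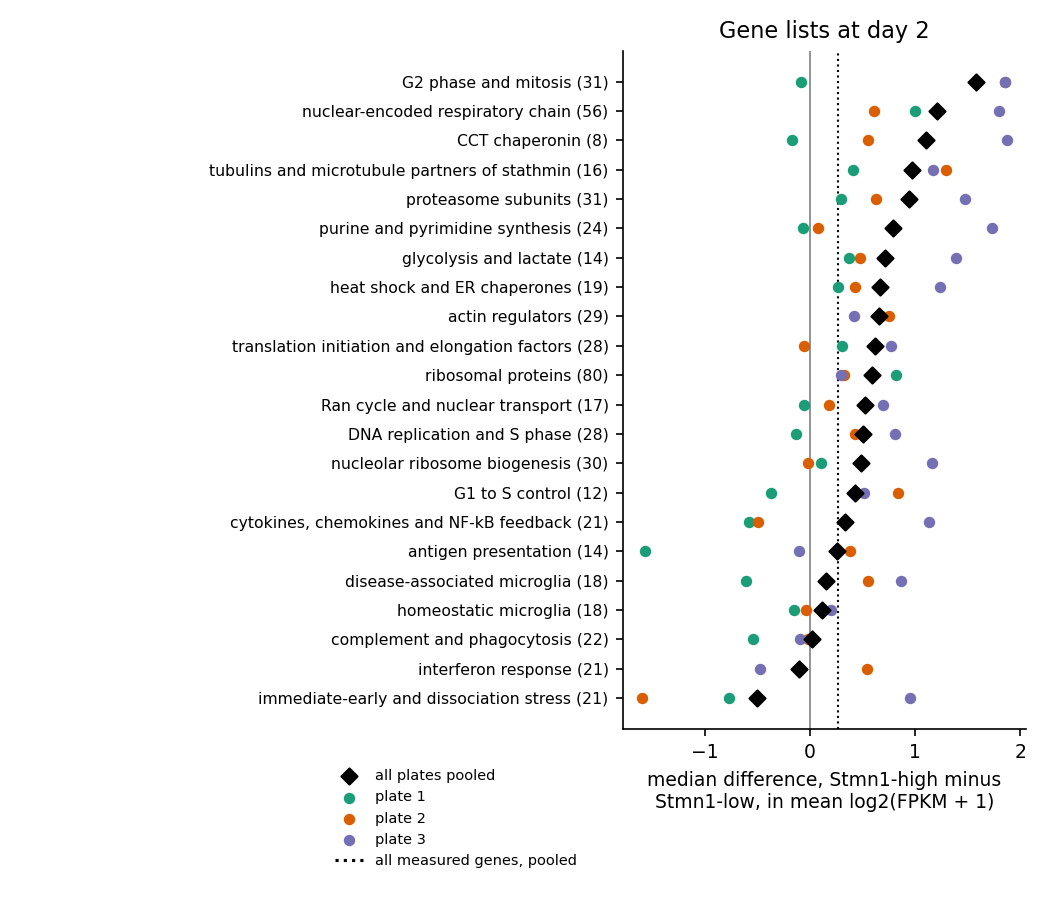
Median difference of each list (Stmn1-high minus Stmn1-low, in mean log2(FPKM + 1)), pooled (black diamond) and on each plate (coloured points), with the number of measured genes in brackets; the dotted line is the median of all measured genes. The mitosis list stands at 1.58 pooled and at -0.08 on plate 1, while the respiratory chain lies above 0 on all plates.

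Microglial state genes did not move as one. Among 18 homeostatic genes 4 were called higher (P2ry12, Olfml3, Fcrls and Mef2c) and 1 lower (Slc2a5), with a median of 0.11, beside 9.27% and 0.547% of all genes. With the covariate 1 was called higher and 1 lower. Among 18 disease-associated genes Lgals3 was called higher and Axl lower (median 0.15). Of 21 interferon genes only Ifi27l2a was called, at 2.17 higher (median -0.10). Of 21 cytokine, chemokine and NF-kB feedback genes 2 were called higher and 1 lower, and the median of 0.34 was -0.58, -0.49 and 1.13 by plate. Without plate 2, 8 were called higher and 4 lower, beside 15.5% and 1.82% of all genes. With the covariate 0 were called higher and 4 lower, beside 5.09% and 2.94%, and the median was -0.37. Lgals3 fell short of a call without cells under 2 M reads, at 0.20, and Olfml3 without plate 3, at 0.76. Fcrls differed by 0.75 without plate 2, and Slc2a5 by -0.72 without plate 3. Gpr84, Tnf and Il1a, the genes of the series title, were not called. Gpr84 lay at 20 FPKM or more in 12 Stmn1-high and 9 Stmn1-low cells, Tnf in 8 and 8, and Il1a in 12 and 18. The Tnf difference of 0.34 had both signs, with -1.86 and -2.89 on plates 1 and 2 but 5.16 on plate 3.

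The few genes called lower included those of antigen presentation. Cd74, the invariant chain of class II molecules, was at 0.379, 25.4 and 7062 FPKM in Stmn1-high cells, against 0.505, 70.4 and 37184 FPKM in Stmn1-low cells. It differed by -2.07 (-2.71, -0.38 and -4.00 by plate), and by -1.03 without plate 3, and 64.8% of its values were not whole reads. H2-Ab1, a class II beta chain, differed by -1.41 (-3.43, -0.22 and -2.01). They were the 2 of 14 antigen presentation genes called, both lower, beside 0.547% of all genes. The list median was 0.26 (-1.57, 0.38 and -0.11 by plate). Class II genes also mark border macrophages, whose 6 measured markers had a median of -0.43 and were below 0 in all 6. By plate that median was -1.04, 1.28 and -1.81, so that plate 2 had the other sign. Pf4 was the most abundant, at a mean of 283 FPKM in Stmn1-high and 463 FPKM in Stmn1-low cells. Without the 9 cells that held markers of another type, the difference was -1.56 for Cd74 and -0.68 for H2-Ab1. The part that border macrophages have in these differences was not tested.

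Il10ra, a receptor chain for interleukin-10, differed by -1.64, Axl, a receptor for apoptotic cells, by -1.54, and Ncf4, of the phagocyte oxidase, by -1.53. Il10ra was at 20 FPKM or more in 4 Stmn1-high and 12 Stmn1-low cells, and Axl in 7 and 18. Axl differed by -0.73 without plate 3, and Ncf4 by -0.87 without plate 2. Complement and phagocytosis had 1 of 22 called lower, Axl, beside 0.547% of all genes, with a median of 0.02. Of 21 immediate-early and dissociation stress genes 2 were called lower, beside 0.547% of all genes. They were the heat shock genes Hspa1a and Hspa1b, at -1.22 and -1.04. Of their values, 81.2% and 81.0% were fractions of a read, and the levels are uncertain for that reason. Without cells holding other markers they differed by -0.93 and -0.86. That list had a median of -0.51 (-0.77, -1.60 and 0.95 by plate), and without plate 3, 12 of its genes were called lower, beside 2.38% of all genes. With the covariate 13 were called lower, beside 2.94%, and the median was -1.41. The 7 glucocorticoid-induced genes, with 0 calls, had a median of 0.47. With 1 plate left out, the medians of the homeostatic, interferon, antigen presentation, phagocytosis, immediate-early and glucocorticoid lists changed sign. With the covariate the medians of the cytokine, disease-associated (-0.09), antigen presentation (-0.39), phagocytosis (-0.42) and glucocorticoid (-0.32) lists were below 0.

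The same split was then made in cells that the rule did not use. At day 4, 1539 of 10131 genes (15.2%) were called higher and 44 (0.434%) lower in 18 Stmn1-high against 18 Stmn1-low cells. Of the genes called higher at day 2, 234 were called higher at day 4, which is 28.7% of the day 2 list and 15.2% of the day 4 list. Of the 803 day 2 genes measured at day 4, 85.9% had the same sign there, against 77.5% of all genes. Of the genes called lower at day 2, 2 were called lower at day 4 (4.17% and 4.55% of the lists). Of the 47 measured at day 4, 13 (27.7%) were lower there too, against 22.5% of all genes, and their median difference at day 4 was 0.33. Cd74, the gene with the largest lower difference at day 2 among those named, was called lower at day 4 too. It differed by -1.03 there (-0.53, -0.12 and -2.32 by plate), whereas H2-Ab1 differed by 1.38 and Axl by 0.74.

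The replication list had few calls at day 2 and many at day 4. At day 4 the replication list had 22 of 41 called higher, with a median of 1.30 (1.47, 0.90 and 1.88 by plate), and Pcna differed by 3.79. At day 2, 3 of 28 were called, beside 9.27% of all genes. The measured genes were chosen separately from the cells of each day, so the 2 counts cover different sets of genes. A gene near 0 in Stmn1-low cells could pass that filter through the Stmn1-high arm, so the day 4 counts are a description too. The mitosis list had 30 of 40 called higher at day 4, with a median of 1.55, against 11 of 31 and 1.58 at day 2. At day 4, at least 10 replication genes were held by 12 of 18 Stmn1-high and 4 of 18 Stmn1-low cells, and at least 10 mitosis genes by 7 and 0. Over all measured genes at day 4, 15.2% were called higher and the median difference was 0.43. Stmn1-high cells of day 4 had a median of 4828.5 genes at 1 FPKM or more, against 3545 in Stmn1-low cells. No model with detected genes as covariate was fitted at day 4, and the difference between the days was not tested. In untreated cells 2 of 5 Stmn1-high and 0 of 49 Stmn1-low cells held at least 10 mitosis genes; no plate had 3 Stmn1-high cells, so no gene was called there. Over all 5 cells the median difference was 2.06 for 16 measured replication genes and 1.30 for 14 measured mitosis genes, beside 0.04 for all measured genes. The 2 cells with at least 10 mitosis genes held 10 and 21 of them, and 27 and 25 replication genes. The other untreated Stmn1-high cells held at most 2 genes of either list, so the medians do not describe each cell.

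**Figure D5:**
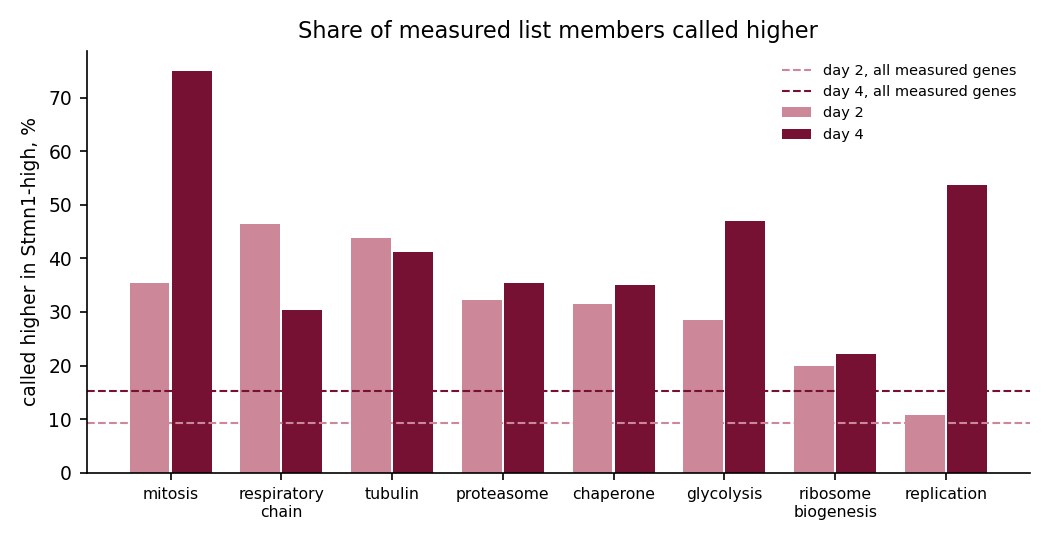
Share of the measured genes of each list that were called higher in Stmn1-high cells at day 2 (light) and day 4 (dark), in percent, with dashed lines at the share of all measured genes on each day (9.27% and 15.2%). The replication list is near the dashed line at day 2 (28 measured genes) and well above it at day 4 (41 measured genes). The measured genes were chosen separately on each day.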

How the data were processed

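Per the labels' protocols, cDNA of each lysed cell was amplified and tagmented (Nextera XT). The submitters' processing notes list STAR 2.7.2b, featureCounts 1.6.1, cutadapt 1.16, Trimmomatic 0.36 and Trim Galore 0.4.4, and the builds GRCm38.p6 and mm10. Their settings are not given in the sources. The authors deposited FPKM values for 55364 genes by 144 cells. The product of FPKM and gene length added up to 1e+09 per cell, and depth was recovered from the most frequent low value, the value of 1 read. A median of 56.5% of values above 0 in day 2 cells were whole reads within 0.01 read, so no count model was fitted. Cells had 0.190 to 18.9 M assigned reads (M for 1000000; median 5.31 M), and intervals cover counting error only.

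Differences are means of log2(FPKM + 1), Stmn1-high minus Stmn1-low, and understate low genes. Named genes were the 15 largest higher and 10 largest lower among genes at 1 FPKM or more in at least 30% of an arm and of 1 sign on all plates, up to 4 genes per list, and Tubb5, Mki67, Top2a, Pcna, Cdk1, Ccnd1, Myc, Gpr84, Tnf and Il1a. Rpl, Rps, Gm, Rik and pseudogene rows were left out of that rule. The split, the members and the 22 programme lists (680 symbols in all lists, 680 matched) were chosen with earlier results of these data known. The procedure was run on simulated cells with large planted changes, and the signs of those changes and the recovery of depth were checked. Unlike in these data, the simulated arms had the same detection rates. The run therefore does not show how often the rule calls unchanged genes here. Alternatives changed plate handling, pseudocount, filter, scaling, threshold, cells and plates. Tools were Python 3.11.15, pandas 2.3.3, numpy 2.4.6, scipy 1.17.1 and matplotlib 3.10.9.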

Additional observations from a re-analysis of the deposited data

How the results depend on the processing

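No paired analysis was possible because no difference has a test and the labels give no replicate numbers that pair cells across arms. Genes called higher were 814, and 447 with detected genes as a covariate, 1378 and 238 with pseudocounts of 0.1 and 10, 506 after centring, and 1374 and 1360 without plate 1 or plate 2. Genes called lower were 48, and 85 with plate-adjusted differences, 258 with the covariate, 580 by the log2 ratio of mean FPKM + 1, 156 and 5 with pseudocounts of 0.1 and 10, 143 after centring, 125 without cells under 2 M reads, and 191, 160 and 209 without plate 1, 2 or 3. By that ratio 56.7% of calls were higher. Leaving out a plate asks for 1 sign on fewer plates, which allows more calls. The mitosis list median was 1.58, and 3.76 by that ratio. The cause of the other changes was not tested. The mitosis, replication and ribosome biogenesis medians kept their sign under every alternative run. Of list medians, 320 values changed by less than the SD of the 3 plate values and 32 moved further. For named genes the counts were 1673 and 103. Lists and genes whose plates disagree stay within this spread more easily, so these counts do not measure stability. The immediate-early median, for example, changed sign from -0.51 to 0.14 without plate 2 and still counted as kept. Without cells holding markers of another type, 902 genes were higher, 57 lower and 13 mitosis genes higher.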
